A study of Mus musculus with 16 samples.

Results

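Saline injection into the anterior chamber is the control procedure for the microbead model of glaucoma. The comparison described here sets saline-injected nerves beside naïve ones in the glial lamina, the unmyelinated part of the optic nerve head. The members are 7 libraries of the 16 in the series: saline-injected replicates 1, 2 and 3 and the 4 young naïve libraries, all columns of the deposited count table chosen by their labels. Young naïve mice were wild type C57BL/6 animals labelled 13 weeks old that had no injection. Saline-injected mice were of the same strain, genotype and labelled age, and their nerves were collected 4 weeks after sterile saline had been injected into the right eye. Both groups are bulk tissue from right nerves, and each library pooled the lamina of 4 mice, 2 male and 2 female, so that a value is a mean over 4 nerves of different animals. Saline replicate 4 was left out of the tests, and its values are given beside the results. The authors also left out 1 saline-injected library as an outlier, but their text does not say which replicate it was. The whole series also holds aged naïve and microbead-injected nerves. They entered the filter on low counts, the normalization and the estimate of the spread between libraries, but not the contrast.

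In the mouse glial lamina the axons of retinal ganglion cells run without myelin between the processes of fibrous astrocytes, with microglia, blood vessels and a sheath of meningeal and scleral cells around them. Astrocytes of this tissue respond to injury with more Gfap, the main intermediate filament, and with genes of matrix, phagocytosis and cytokine signalling. Raised intraocular pressure is the usual trigger in glaucoma models. A puncture of the cornea and a change of fluid in the anterior chamber do not touch the nerve head directly.

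The 7 libraries held 8055203 to 10258288 counts. Between 16446 and 17007 genes were detected in each. The mean total was 8877029 in saline-injected and 9071856 in young naïve libraries (exact permutation test, two-sided, p = 0.8, where the smallest possible p is 0.0571). Markers of the labelled tissue were abundant in every library. Gfap ranged from 5237 to 8528 CPM (counts scaled to a common, TMM-normalized library total), the astrocyte water channel Aqp4 from 163 to 195 CPM, and the meningeal prostaglandin synthase Ptgds from 10754 to 26866 CPM. Myelin RNA was also present: Mbp, myelin basic protein, lay between 4179 and 10326 CPM. Libraries were apart in several ways that touch the comparison. All young naïve libraries carry code 3 in their titles and all saline-injected libraries code 4, so that the code and the injection cannot be told apart within these 7. Fits below with the code as a term learn the step from code 3 to 4 within the aged group. There only replicate 4 carries code 4, so those fits rest on that 1 library. Rods contributed unevenly. The summed level of 15 photoreceptor markers was 5577 CPM in young naïve replicate 2 and 7769 CPM in saline replicate 2, against 67.7 to 1133 CPM in the other 5. Lars2, the mitochondrial leucyl-tRNA synthetase, was assigned 131 to 213 CPM in young naïve libraries and 90.5 to 131 CPM in saline libraries 1 to 3. Saline replicate 4 held 5569 CPM of it. It also stood apart over all genes: its median absolute log2 difference per gene averaged 0.321 from young naïve and 0.365 from the other saline libraries. The same distance averaged 0.172 between young naïve libraries (range 0.156 to 0.191), 0.220 between young naïve and saline libraries 1 to 3 (0.179 to 0.248) and 0.223 among saline libraries 1 to 3 (0.173 to 0.259). On average, saline libraries 1 to 3 were thus no nearer to each other than to naïve ones by this measure. Saline replicates 2 and 3 lay 0.173 apart, below every distance between a saline and a naïve library (lowest 0.179). Saline replicate 1 lay 0.259 and 0.238 from them.

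**Figure D1:**
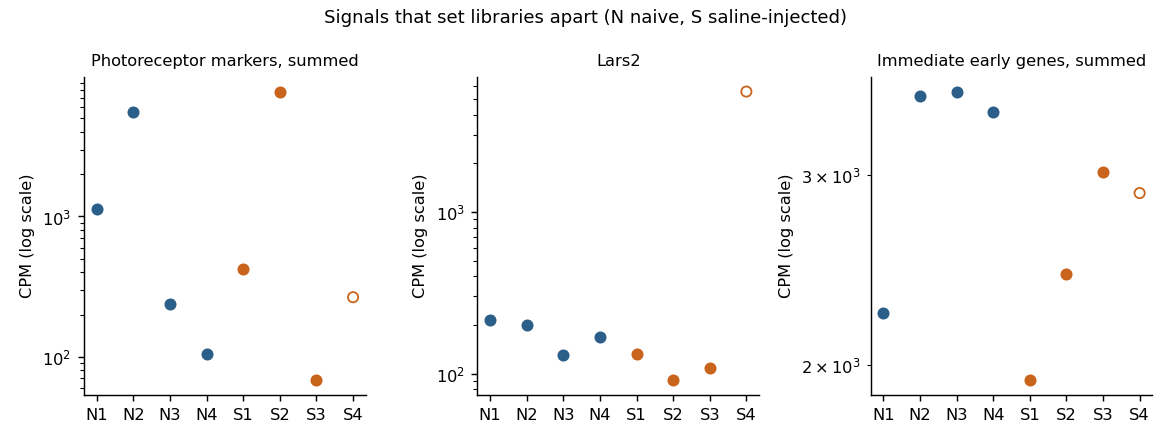
Level of 3 signals in each library, in CPM on log axes, with young naïve libraries (N1 to N4) in blue, saline-injected libraries 1 to 3 in filled orange and saline replicate 4 as an open circle. Photoreceptor markers were highest in N2 and S2, Lars2 was 5569 CPM in S4 and at most 213 CPM elsewhere, and the summed immediate early genes were lowest in S1 (1936 CPM) and N1 (2233 CPM).

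Between saline-injected and young naïve libraries, edgeR called 1 gene. Counts were tested by edgeR's robust quasi-likelihood F-test over 14 libraries. A call needed an adjusted p (Benjamini-Hochberg) under 0.05, an unadjusted p under 0.01 and a change of 1.5-fold or more. Vgll4 was the single call among 14541 genes tested, 0.00688% of them. Atp1b2 and Dnajb9 passed the adjusted p but not the fold. In all, 16 genes had an adjusted p under 0.1, of which 5 were higher and 11 lower after saline. At an unadjusted p under 0.05, 935 genes were higher after saline (6.43% of those tested) and 809 were lower (5.56%), and of these 102 and 171 had a fold of at least 1.5. These shares are the background for the counts of list members below. Leaving out 1 library moved them to between 4.68% and 7.83% and between 3.58% and 8.59%. The groups did not overlap for 1033 genes that were higher (7.1%) and 647 that were lower (4.45%). Differences were small across the transcriptome: the log2 fold change was under 0.25 in either direction for 73.2% of genes, the median standard error was 0.148, and for 9186 genes (63.2%) the whole 95% confidence interval lay inside a 1.5-fold change in either direction. When known changes were put into simulated counts for these libraries, the calls recovered 20 of 62 at 1.5-fold, 55 of 67 at 2-fold and 62 of 64 at 4-fold. Those counts were drawn for each gene on its own, without differences that run across many genes of a library. They therefore cannot show how many such changes would be found in the real counts.

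The count of calls depended on single libraries. Without saline replicate 1 it was 90, 65 of them lower, and without young naïve replicate 3 it was 20. It was 0 without young naïve replicate 2 or 4 or without saline replicate 2 or 3, and 1 without young naïve replicate 1, where the called gene was D4Wsu53e (named after its values were seen) and not Vgll4. With saline replicate 4 added, edgeR called 0 genes, with 868 higher and 449 lower at an unadjusted p under 0.05. DESeq2, the package named in the study's methods, called 60 genes at the same thresholds, 13 higher and 47 lower. The lower ones included Lars2 (log2 fold change -0.70, adjusted p = 0.00461 from DESeq2). They also included Vgll4, Spry2, Ch25h, Btg2, Jun, Sik1, Insig1, Cyr61 and Nefh, and the higher ones Lum, Nr1d1 and Zrsr1. Apart from Vgll4, the main edgeR fit called none of these, and the adjusted p values below are from edgeR unless DESeq2 is named. Gene length moved with the comparison: genes lower at an unadjusted p under 0.05 had a median exon length of 4589 bases, genes higher 2380 bases and all tested genes 2867 bases. The median log2 fold change was -0.17 in the 646 longest genes. After each library's trend with length had been removed, 847 genes were higher and 650 lower at the unadjusted threshold and 0 were called.

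**Figure D2:**
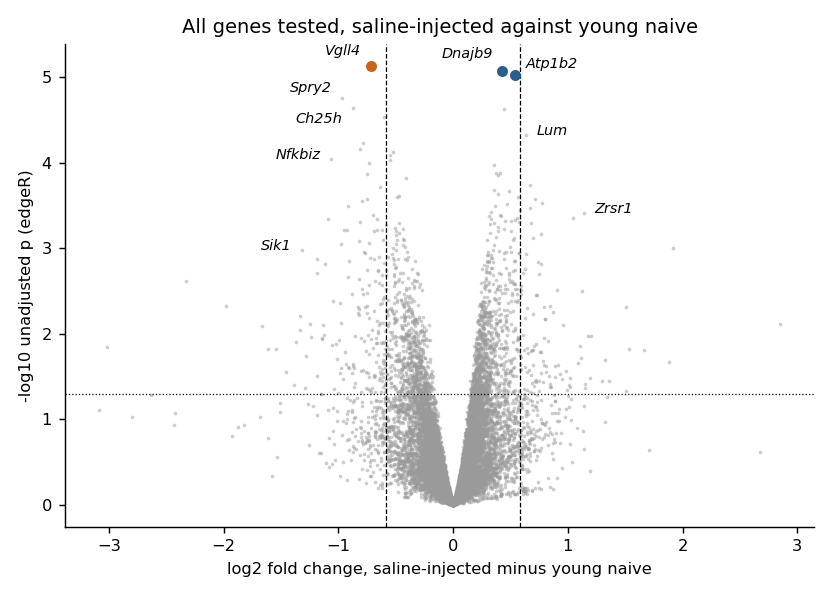
Each point is 1 of 14541 genes, with the log2 fold change (saline-injected minus young naïve) on the x axis and -log10 of the unadjusted edgeR p on the y axis. Dashed lines mark a 1.5-fold change and the dotted line the unadjusted threshold of 0.05. The called gene Vgll4 is orange, and Atp1b2 and Dnajb9, which passed the adjusted threshold with a smaller fold, are blue.

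Vgll4 encodes a cofactor that competes with the growth regulator Yap for binding to TEAD transcription factors. It stood at 99.5, 93.2, 87.8 and 122 CPM in young naïve libraries 1 to 4 and at 68.7, 55.7 and 60.1 CPM in saline libraries 1 to 3. Every saline value lay below every naïve value, and saline replicate 4 had 59.5 CPM. Mean levels were 101 ± 15.2 CPM (SD, n = 4) and 61.5 ± 6.59 CPM (SD, n = 3). This was a difference of -0.71 on the log2 scale (95% interval -0.95 to -0.47, adjusted p = 0.0457 from edgeR). The gene lies on chromosome 6 of mm10 between 114862092 and 114921752. The call was lost without young naïve replicate 1 (adjusted p = 0.0780), 2 (0.173) or 4 (0.173) and without saline replicate 2 (0.366) or 3 (0.225), in edgeR. It was also lost with saline replicate 4 added (0.0502), in the 7 libraries alone (0.108), in all 16, with the length trend removed (0.0554), with the replicate block (0.0899) and with the library code as a term (0.123), while the log2 fold change stayed between -0.97 and -0.60 in every alternative fit, saline replicate 4 and all 16 libraries included. Over those fits the adjusted p ran from 3.41e-05 (DESeq2) to 0.836 (edgeR, all 16 libraries).

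Other members of the Hippo pathway, the kinase cascade that holds Yap out of the nucleus, were also read. Of 23 tested, Vgll4 included, 6 were lower and 1, Tead2, higher at an unadjusted p under 0.05, beside 5.56% and 6.43% of all genes, and the median log2 fold change was -0.07 (0.02 without saline replicate 2). Yap1 itself had 72.9, 63.6, 48.3 and 71.8 CPM in naïve and 48.8, 43.2 and 44.7 CPM in saline libraries (log2 fold change -0.49, adjusted p = 0.137 from edgeR), and the groups overlapped through young naïve replicate 3. Amotl2, an angiomotin that tethers Yap at junctions, had 50.4 to 67.4 CPM in naïve and 36.7 to 41.8 CPM in saline libraries (-0.65). Wwtr1, the paralogue of Yap, differed by -0.29. Cyr61, a secreted matrix protein and a standard target of Yap, had 229, 567, 793 and 499 CPM in naïve and 136, 218 and 266 CPM in saline libraries (-1.34, adjusted p = 0.254 from edgeR). Its lowest naïve value lay inside the saline range. In saline replicate 4, Yap1 (58.8 CPM), Amotl2 (82.2 CPM) and Cyr61 (459 CPM) were within or above the naïve range, unlike Vgll4. With replicate 4 added, 3 members were lower, beside 3.08% of all genes. Wwtr1, Tead2 and Cyr61 were named after their values were seen.

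Among astrocyte genes, Atp1b2 was the most clearly different. It encodes the β2 subunit of the sodium pump, an adhesion molecule of glia. Its level was 828, 801, 774 and 728 CPM in naïve libraries and 1164, 1246 and 1009 CPM in saline libraries, with 1497 CPM in saline replicate 4. No naïve library reached the lowest saline value, and the log2 fold change was 0.54 (95% interval 0.36 to 0.73, adjusted p = 0.0457 from edgeR), a 1.46-fold difference. Over the alternative fits the log2 fold change stayed between 0.47 and 0.74, while the adjusted p ran from 3.41e-05 (DESeq2) to 0.892 (edgeR, all 16 libraries). Gfap had 5840, 5237, 5869 and 6511 CPM in naïve and 6989, 8528 and 7798 CPM in saline libraries, with 8178 CPM in replicate 4. It was higher in all 3 saline libraries, by 0.41 on the log2 scale (95% interval 0.16 to 0.65), but did not pass adjustment (adjusted p = 0.187 from edgeR). Glul, glutamine synthetase, was lower: naïve libraries held 316 to 380 CPM and saline libraries 260 to 305 CPM (log2 fold change -0.30, adjusted p = 0.230 from edgeR). Of 20 astrocyte markers, 2 were higher and 2 lower at the unadjusted threshold, beside 6.43% and 5.56% of all genes. The interval lay inside 1.5-fold for 15, beside 63.2% of all genes, and the median log2 fold change was -0.03. The number lower was 4 without young naïve replicate 2, beside 4.83% of all genes, and 1 without young naïve replicate 4, beside 4.32%. The summed level of the list was 18212 to 21756 CPM in naïve and 20843 to 22016 CPM in saline libraries, which overlap. Fewer cells of a type and less RNA in each cannot be told apart in bulk tissue.

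Dnajb9, a chaperone of the endoplasmic reticulum induced by the sensor Ire1, had the tightest values of the 3 genes that passed the adjusted p. Naïve libraries held 64.7, 62.9, 68.8 and 64.7 CPM and saline libraries 90.5, 83.1 and 89.3 CPM, and saline replicate 4 was at 129 CPM. The groups were separate, and the log2 fold change was 0.42 (95% interval 0.28 to 0.57, adjusted p = 0.0457 from edgeR). The alternative fits gave 0.38 to 0.59, with an adjusted p of 5.09e-05 (DESeq2) to 0.856 (edgeR, all 16 libraries). Of 22 genes of the stress response of this organelle, 4 were higher and 2 lower at the unadjusted threshold, beside 6.43% and 5.56% of all genes. The interval lay inside 1.5-fold for 19, beside 63.2% of all genes. The higher members were Dnajb9, Herpud1, which takes part in the removal of misfolded proteins (0.39), the calcium-binding chaperone Calr (0.23) and the transcription factor Xbp1 (0.18). The lower members were Atf6, a sensor of the same response (-0.42), and the co-chaperone Dnajc3 (-0.26). The list's median was 0.02. The number of lower members was 5 without young naïve replicate 3, 4 without saline replicate 1 or 3 and 1 without saline replicate 2. The shares of all genes in those fits were 6.87%, 8.59%, 4.65% and 3.58%. Calr, Xbp1 and Dnajc3 were named after their values were seen.

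**Figure D3:**
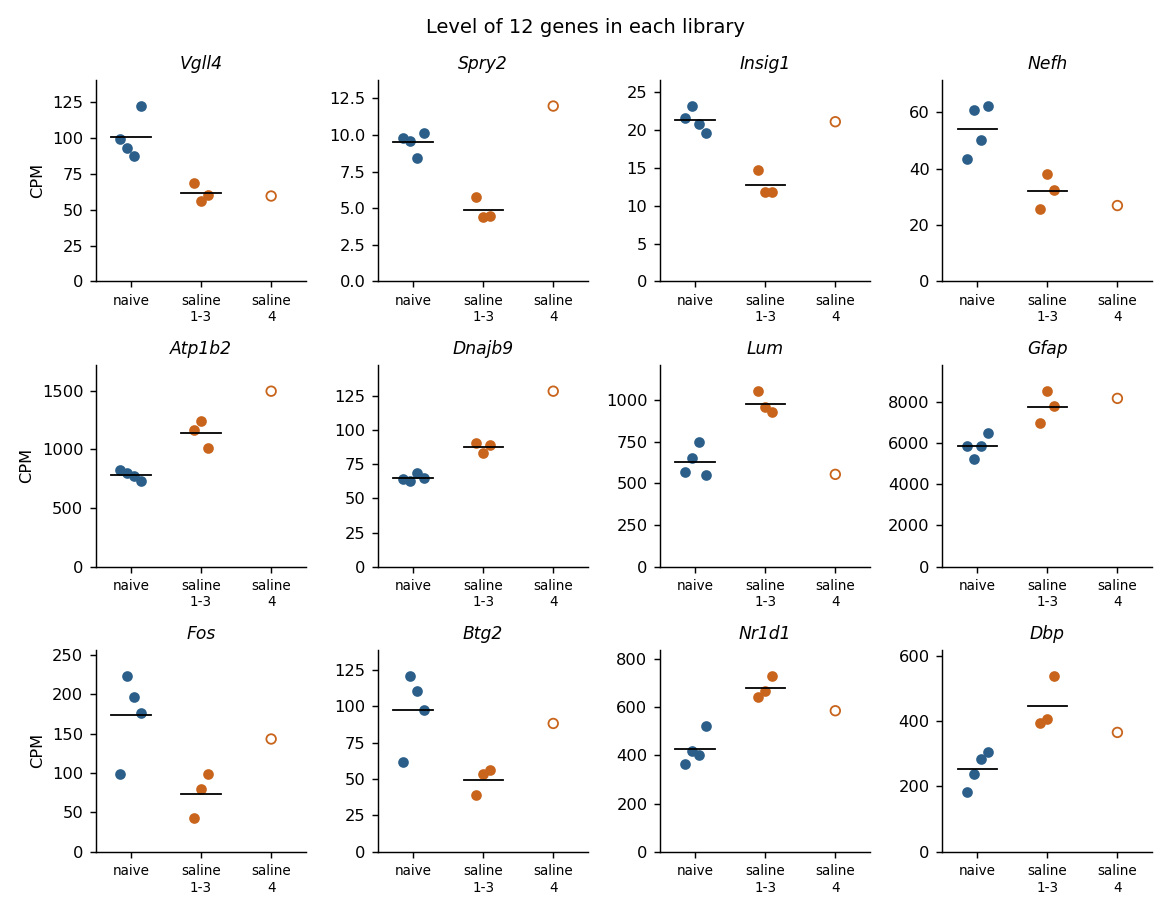
CPM of 12 genes in each library, with young naïve libraries in blue, saline libraries 1 to 3 in filled orange, saline replicate 4 as an open circle and the group mean as a line (n = 4 and n = 3). Axes start at 0. Vgll4, Spry2, Insig1, Nefh, Fos and Btg2 lay lower in saline libraries 1 to 3 than in every naïve library, and Atp1b2, Dnajb9, Lum, Gfap, Nr1d1 and Dbp lay higher.

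Immediate early genes, which are transcribed within minutes of a stimulus, had the lowest median log2 fold change (-0.34) of the 42 lists read except the 6 skeletal muscle markers (-0.37). Of 22 tested, 6 were lower at the unadjusted threshold and 1, Jund, was higher, beside 5.56% and 6.43% of all genes. Fos, a subunit of the AP-1 factor, had 99.0, 223, 196 and 176 CPM in naïve libraries and 42.6, 79.2 and 98.7 CPM in saline libraries. The groups were separate, although young naïve replicate 1 and saline replicate 3 almost met. The log2 fold change was -1.24 (95% interval -2.12 to -0.35, adjusted p = 0.264 from edgeR).

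Btg2, an antiproliferative gene of the same class, had 61.7, 121, 110 and 97.2 CPM in naïve and 38.9, 53.3 and 56.5 CPM in saline libraries (log2 fold change -0.97, adjusted p = 0.148 from edgeR). The groups were separate, again with young naïve replicate 1 lowest of its group. Jun, the partner of Fos, had 351, 462, 533 and 490 CPM in naïve and 227, 244 and 307 CPM in saline libraries (-0.82). The orphan nuclear receptor Nr4a1 had 17.1, 97.3, 135 and 77.1 CPM in naïve and 23.7, 30.5 and 39.5 CPM in saline libraries (-1.39). Here the naïve value of replicate 1 was below all saline values. The remaining lower members were Ier5 (-0.25) and Klf6 (-0.48). Saline replicate 4 had 143 CPM of Fos, 88.2 CPM of Btg2 and 68.2 CPM of Nr4a1, higher than saline libraries 1 to 3. Sik1, a kinase induced by cAMP and not on the list, followed them with 14, 34.2, 30.6 and 25.9 CPM in naïve and 11.4, 8.25 and 12.1 CPM in saline libraries (log2 fold change -1.32, adjusted p = 0.155 from edgeR), and replicate 4 had 38.7 CPM. Without young naïve replicate 1, 12 members of the list were lower, beside 4.05% of all genes. Without young naïve replicate 3 or 4 or saline replicate 2 the number was 4, beside 6.87%, 4.32% and 3.58% of all genes. With saline replicate 4 added it was also 4, beside 3.08%. Klf6, Nr4a1 and Jund were named after their values were seen.

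The stretches before the start sites of 3 of these genes are shown because they hold the letters TGACG, the core of the cAMP response element that many immediate early genes carry. They are the 250 bases before the RefSeq start in build GRCm38.p6, read 5′ to 3′ on the gene's strand, with TGACG on either strand (CGTCA on the printed one) in capitals. Fos lies on the forward strand at chr12:85473640-85473889, Btg2 on the reverse strand at chr1:134079156-134079405 and Nr4a1 on the forward strand at chr15:101266596-101266845.
Fos: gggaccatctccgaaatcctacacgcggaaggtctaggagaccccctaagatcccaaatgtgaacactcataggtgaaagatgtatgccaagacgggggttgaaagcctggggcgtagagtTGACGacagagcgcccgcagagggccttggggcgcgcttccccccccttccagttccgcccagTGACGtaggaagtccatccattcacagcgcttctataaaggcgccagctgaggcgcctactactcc
Btg2: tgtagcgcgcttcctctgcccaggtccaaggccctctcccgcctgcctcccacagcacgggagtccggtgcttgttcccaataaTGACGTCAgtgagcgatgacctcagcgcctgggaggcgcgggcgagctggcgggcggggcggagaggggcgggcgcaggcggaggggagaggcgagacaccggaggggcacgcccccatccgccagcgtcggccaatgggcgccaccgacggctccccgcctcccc
Nr4a1: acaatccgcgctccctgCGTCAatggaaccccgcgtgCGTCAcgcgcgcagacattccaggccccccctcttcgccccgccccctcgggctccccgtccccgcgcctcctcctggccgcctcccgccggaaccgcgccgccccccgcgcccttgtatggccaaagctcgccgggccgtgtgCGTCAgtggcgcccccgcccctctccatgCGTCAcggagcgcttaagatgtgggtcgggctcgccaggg
In Btg2 a TGACG and a CGTCA overlap to give the full palindrome TGACGTCA. Fos holds 2 and Nr4a1 4 single cores. TGACG was found before 3 of the 6 lower members, against 26.1% of the 10305 tested genes with a promoter in the table and 17.9% of all 27025. TGACGTCA was found before 1 of 6, against 2.59% of the tested genes and 1.62% of all. Among the whole list, 9 of 17 members with a promoter held TGACG (52.9%).

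Spry2, a feedback inhibitor of receptor tyrosine kinase signalling to Erk, lay just past the adjusted threshold in edgeR. It had 9.77, 9.61, 8.41 and 10.2 CPM in naïve and 5.75, 4.43 and 4.45 CPM in saline libraries, a log2 fold change of -0.96 (95% interval -1.31 to -0.62, adjusted p = 0.0573 from edgeR). All saline values were below all naïve values, but saline replicate 4 stood above both, at 12 CPM. Ch25h, the enzyme that makes 25-hydroxycholesterol, had 26.9, 31.6, 23.9 and 24.3 CPM in naïve and 13.0, 13.3 and 17.5 CPM in saline libraries (-0.87, adjusted p = 0.0573 from edgeR). Replicate 4 went further in the same direction, at 7.35 CPM. Nfkbiz, an inducible regulator of NF-κB target genes, had 8.47 to 13.5 CPM in naïve and 4.23 to 6.01 CPM in saline libraries (-1.06, adjusted p = 0.0964 from edgeR). Others lower at the smallest p were the centromere protein Cenpb (-0.61), the chloride channel family member Ttyh2 (-0.79), Ogdhl, a relative of the oxoglutarate dehydrogenase (-0.75), Clasp2, which stabilizes growing microtubules (-0.79), the prostaglandin D2 receptor Ptgdr (-0.92) and the uncharacterized C130039O16Rik (-0.75). The zinc finger factor Zbtb16, a target of glucocorticoids in other tissues, was among the largest decreases, with 7.39 to 12 CPM in naïve and 3.88 to 5.94 CPM in saline libraries (-1.12, adjusted p = 0.159 from edgeR). The chemokine-binding receptor Darc of venules had 47.7, 17.2, 21.8 and 18.6 CPM in naïve and 12.3, 14.2 and 9.53 CPM in saline libraries (-1.13), with the highest value in young naïve replicate 1.

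Genes of interleukin-6 signalling also had members in the lower direction. Cntfr, the receptor subunit that binds ciliary neurotrophic factor, had 67.8 to 74.6 CPM in naïve and 46.4 to 54.3 CPM in saline libraries (log2 fold change -0.50, adjusted p = 0.147 from edgeR). Cebpd, an acute phase transcription factor, had 239 to 329 CPM and 183 to 225 CPM (-0.53), and the cytokine Lif had 2.13 to 2.94 CPM and 1.07 to 1.81 CPM (-0.78). In each the groups were separate. Of 21 tested, 4 were lower and 0 higher at the unadjusted threshold, beside 5.56% and 6.43% of all genes. The interval lay inside 1.5-fold for 13, including Stat3, the factor this pathway activates, whose interval ran from -0.23 to 0.16. Without saline replicate 1, 2 were lower, beside 8.59% of all genes. Cntfr was back at 69.9 CPM and Lif at 2.85 CPM in saline replicate 4, and Cebpd was at 171 CPM. Cebpd shares 14.1% of its exon bases with 2310008H04Rik on the opposite strand.

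Genes of sterol and fatty acid synthesis, a pathway that glia use for membrane and myelin lipid, had some members that were lower at the unadjusted threshold. Insig1, the sterol-regulated anchor of the SREBP activator, had 21.6, 23.2, 20.8 and 19.6 CPM in naïve and 14.7, 11.9 and 11.8 CPM in saline libraries. The groups were separate and the log2 fold change was -0.74 (95% interval -1.05 to -0.43, adjusted p = 0.0964 from edgeR). Fasn, fatty acid synthase, differed by -0.42 and the stearoyl-CoA desaturases Scd2 and Scd1 by -0.25 and -0.42. Of 24 members, 7 were lower and 0 higher at the unadjusted threshold, beside 5.56% and 6.43% of all genes. The interval lay inside 1.5-fold for 18 and the median was -0.09. Saline replicate 4 did not share the difference, with 21.1 CPM of Insig1 and 79.2 CPM of Fasn, above the highest naïve value of Fasn (63.2 CPM). The number of lower members was 4 with that library added, beside 3.08% of all genes, and 4 without saline replicate 1, beside 8.59%. Scd1 was named after its values were seen.

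Transcripts of ganglion cells, which reach the lamina in axons or from adjoining retina, were few, and 3 neurofilament and tubulin genes were lower at the unadjusted threshold. Nefh, the neurofilament heavy chain, had 43.6, 60.7, 50.1 and 62.2 CPM in naïve and 25.8, 38.1 and 32.3 CPM in saline libraries, with 26.9 CPM in saline replicate 4. All saline values were below all naïve values (log2 fold change -0.75, 95% interval -1.23 to -0.27, adjusted p = 0.221 from edgeR). Nefm, the medium chain, had 7.63 to 13.6 CPM and 4.96 to 6.01 CPM (-0.77), with 2.73 CPM in replicate 4. The neuronal tubulin Tubb3 had 14.1 to 22.5 CPM and 11 to 14.1 CPM (-0.58), with 8.42 CPM in replicate 4. Of 14 markers tested these 3 were lower and 0 higher, beside 5.56% and 6.43% of all genes. The median of the 14 was -0.22 on the log2 scale, but 0.17 without young naïve replicate 2, and the summed level overlapped, with 272 to 570 CPM in naïve and 277 to 389 CPM in saline libraries. Reads of Nefm and of an antisense gene, A230070E04Rik, could not be told apart over 33.3% of its exon bases, since the kit keeps no strand. Nefh shares 10.6% of its exon bases with Ap1b1 on the opposite strand. With the library code as a term, Nefh was at -0.20, Tubb3 at -0.17 and 0 markers were lower, beside 6.19% of all genes. That fit learns the step from code 3 to code 4 from a single code 4 library, aged replicate 4.

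On the higher side were some genes of the circadian clock. Nr1d1, the repressor Rev-erbα, had 365, 420, 400 and 520 CPM in naïve and 644, 667 and 729 CPM in saline libraries, with 586 CPM in saline replicate 4. The groups were separate, and the log2 fold change was 0.67 (95% interval 0.36 to 0.99, adjusted p = 0.130 from edgeR). Bhlhe40, the repressor Dec1, had 207 to 265 CPM in naïve and 304 to 354 CPM in saline libraries (0.56). Dbp, an activator whose RNA follows the clock closely, had 183, 237, 283 and 305 CPM in naïve and 395, 407 and 537 CPM in saline libraries (0.82, adjusted p = 0.266 from edgeR). Dbp shares 32.1% of its exon bases with Sphk2, a sphingosine kinase gene on the opposite strand. Sphk2 had 80.8 to 115 CPM in naïve and 142 to 185 CPM in saline libraries (log2 fold change 0.64). In reads without strand it may not be independent of Dbp. Tef, a relative of Dbp, differed by 0.40. In the other direction, the activators Clock (-0.32) and Arntl, known as Bmal1, had lower means. Arntl had 59.6, 55.4, 52.5 and 39.9 CPM in naïve and 32.7, 34.5 and 30.1 CPM in saline libraries (-0.68, unadjusted p = 0.0801 from edgeR). Of 19 members, 4 were higher and 1 lower at the unadjusted threshold, beside 6.43% and 5.56% of all genes. The list's median was 0.05. The summed level was 1340 to 1709 CPM in naïve and 1964 to 2224 CPM in saline libraries, with 2039 CPM in replicate 4. That sum includes Nr1d1, Bhlhe40 and Dbp and does not show a shift of the other members. Without saline replicate 3, 2 were higher, beside 4.82% of all genes. With the library code as a term the list's median was -0.14, against 0.05. Tef, Clock and Arntl were named after their values were seen.

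Genes of the sheath and its matrix included Lum, the keratan sulfate proteoglycan lumican, with 569, 656, 749 and 550.4 CPM in naïve and 1055, 958 and 929 CPM in saline libraries. The groups were separate, the log2 fold change was 0.64 (95% interval 0.39 to 0.89, adjusted p = 0.0863 from edgeR), and saline replicate 4 was back at 555 CPM. The collagen chains Col1a1 (208 to 255 CPM in naïve, 301 to 400.0 CPM in saline libraries, log2 fold change 0.58) and Col3a1 (452 to 491 CPM and 508 to 759 CPM, 0.45) were higher in each saline library, and reached 697 and 887 CPM in saline replicate 4. Of 18 fibroblast and meningeal markers, 4 were higher and 1 lower at the unadjusted threshold, beside 6.43% and 5.56% of all genes. Their median was -0.14. The summed level, 27818 to 34263 CPM in naïve and 17921 to 34089 CPM in saline libraries, overlapped, with its lowest value in saline replicate 2. Without saline replicate 3, 2 of these markers were higher, beside 4.82% of all genes. With the library code as a term 6 were higher, beside 5.36%, and the median was 0.59. Timp1, an inhibitor of matrix proteases, had 40.9 to 47.6 CPM in naïve and 50.9 to 63.2 CPM in saline libraries (0.40).

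Microglia markers had small positive differences. Gpr34, a lysophosphatidylserine receptor of microglia, had 23.4 to 34.4 CPM in naïve and 37.4 to 43.1 CPM in saline libraries (log2 fold change 0.40, adjusted p = 0.229 from edgeR), and Fcer1g, an adaptor of Fc receptors, had 105 to 141 CPM and 142 to 196 CPM (0.43). The lysosomal membrane protein Laptm5 differed by 0.29 and the calcium-binding protein Aif1 by 0.28. Of 26 markers, 5 were higher and 0 lower at the unadjusted threshold, beside 6.43% and 5.56% of all genes. A positive log2 fold change was seen for 20 (median 0.14). The interval lay inside 1.5-fold for 18, among them the fractalkine receptor Cx3cr1, with 54.6 to 65.0 CPM in naïve and 54.5 to 67.1 CPM in saline libraries. The summed level overlapped, with 4216 to 5544 CPM in naïve and 4979 to 5783 CPM in saline libraries. In saline replicate 4 it was lower than in all 7, at 3739 CPM. With that library added 0 markers were higher at the unadjusted threshold, beside 5.96% of all genes. The number was 2 without young naïve replicate 1 or 4 or saline replicate 2 (all genes 4.68%, 5% and 5.49%). It was 3 without young naïve replicate 2 (5.17%). Without young naïve replicate 3 it was 8, beside 7.42% of all genes. With the library code as a term 10 were higher, beside 5.36% of all genes, and the median was 0.50. Lysosomal genes, which many cells share, had 4 of 31 higher and 0 lower, beside 6.43% and 5.56% of all genes, with a median of 0.10. Gpnmb, a membrane protein of phagocytes and pigment cells, had 284 to 429 CPM in naïve and 475 to 541 CPM in saline libraries (0.52). The proton pump subunit Atp6v0d1 had 63.2 to 69.2 CPM and 81.1 to 89.8 CPM (0.36, adjusted p = 0.0964 from edgeR). The number of lysosomal genes that were higher was 9 without saline replicate 1, 7 without young naïve replicate 3 and 2 without saline replicate 3. The shares of all genes in those fits were 7.83%, 7.42% and 4.82%.

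Of 16 vessel markers, 5 were higher and 1 lower at the unadjusted threshold, beside 6.43% and 5.56% of all genes. Egfl7, an endothelial secreted factor, had 49.4 to 59.4 CPM in naïve and 64.2 to 81.6 CPM in saline libraries (log2 fold change 0.39), the receptor Tie1 differed by 0.46 and the sialomucin Emcn by 0.41. The glucose transporter Slc2a1 of barrier endothelium differed by -0.27, and the median was 0.06. Without saline replicate 2, Tie1 alone was higher (all genes 5.49%). Without young naïve replicate 1 or 4 or saline replicate 3 the number was 3 (4.68%, 5% and 4.82%). With saline replicate 4 added 2 markers were higher (5.96%), and without both libraries richest in photoreceptor RNA 0 were (4.12%). The 2 red cell genes tested were both higher at the unadjusted threshold and summed to 38.5 to 70.7 CPM in naïve libraries and 137, 143 and 49.8 CPM in saline libraries 1 to 3, and 9.73 CPM in saline replicate 4. The 4 neutrophil and lymphocyte markers tested summed to 7.18 to 10.3 CPM in naïve and 9.76 to 14.7 CPM in saline libraries, and 0 of them passed that threshold. Whether blood in the tissue had a part in the values of vessel or microglia genes was not tested. Emcn was named after its values were seen.

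Single genes that were higher with the smallest p had mostly low levels. Scly, which recycles selenium from selenocysteine, had 6.78 to 10.2 CPM in naïve and 12 to 14.3 CPM in saline libraries (log2 fold change 0.67), and Sepx1, a selenium-containing methionine sulfoxide reductase, had 4.94 to 6.17 CPM and 8.13 to 10.4 CPM (0.71). Both were higher still in saline replicate 4, at 20.9 and 18.1 CPM. Zrsr1, an imprinted splicing factor gene, had the largest difference of this group, with 10.7, 12.1, 8.41 and 11.6 CPM in naïve and 18.7, 23.6 and 28.3 CPM in saline libraries (1.14, 95% interval 0.60 to 1.68, adjusted p = 0.130 from edgeR). It was at 7.23 CPM in saline replicate 4, below every naïve library. The odorant receptor gene Olfr558 differed by 1.05, the macrophage protein Lrrc33, which anchors latent TGF-β, by 0.77, the GTPase regulator Arap3 by 0.77, the cytokine receptor kinase Jak3 by 0.70, the homeobox factor Six5 by 0.68 and the G protein regulator Rgs16 by 0.59, with adjusted p values of 0.130 to 0.139 from edgeR.

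Reactive astrocyte and phagocytosis genes were a readout for which these nerves served as controls. The panel of single-cell PCR genes in the study had 19 members that could be tested, of which 0 were called. An unadjusted p under 0.05 was reached by 2 (Gfap and the matrix protein Fbln5, 0.33), beside 12% of all genes. The interval lay inside 1.5-fold for 14, beside 63.2% of all genes. Log2 fold changes of the 19 ran from -0.33 for Park2 to 0.50 for Psmb8, with a median of 0.02. The phagocytic receptor Megf10 had an interval from -0.20 to 0.24, its bridging molecule Mfge8 from -0.15 to 0.39, and the lipid transporter Abca1 from -0.41 to 0.16. The intervals of Gfap, Psmb8, H2-T23, Clcf1 and Park2 crossed a 1.5-fold line. That of Gfap lay wholly above 0 and was narrower than those of Mfge8 and Abca1. Of 21 phagocytosis genes, 20 had an interval inside 1.5-fold, beside 63.2% of all genes. At the unadjusted threshold 3 were higher and 1 was lower, beside 6.43% and 5.56% of all genes. Without saline replicate 1, 6 were higher, beside 7.83%. All these intervals are each at 95% and are not adjusted for the number of genes.

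**Figure D4:**
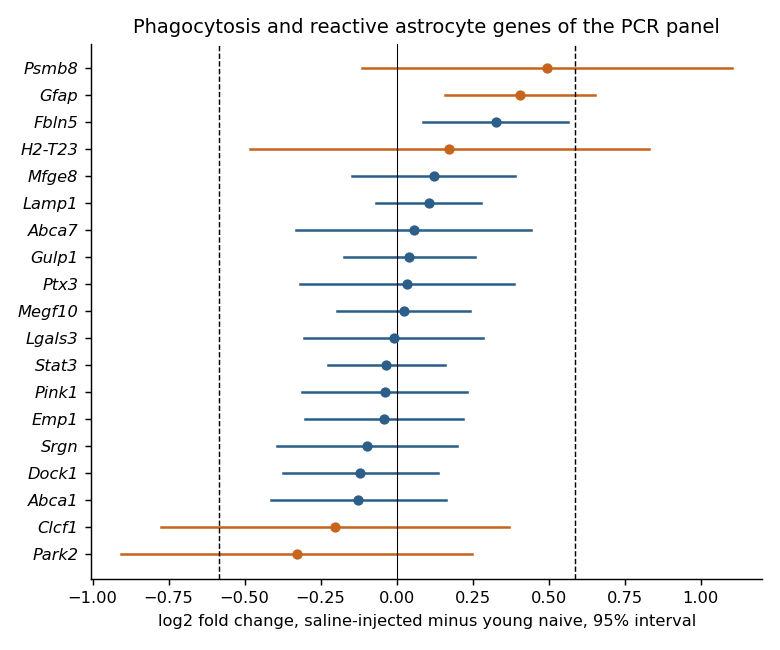
Log2 fold change (saline-injected minus young naïve) with its 95% interval for the 19 tested genes of the PCR panel, with dashed lines at a 1.5-fold change. The 14 intervals inside the lines are blue, and the 5 that cross a line (Psmb8, Gfap, H2-T23, Clcf1 and Park2) are orange.

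Among 13 pan-reactive astrocyte genes, 2 were higher (Gfap and Timp1) and 1 lower at the unadjusted threshold, beside 6.43% and 5.56% of all genes. The lower member was Lcn2, a secreted siderophore-binding protein that marks reactive astrocytes, with 41.3, 23, 17.2 and 15 CPM in naïve and 15.2, 8.55 and 6.23 CPM in saline libraries (log2 fold change -1.28, adjusted p = 0.304 from edgeR). The groups met at young naïve replicate 4 and saline replicate 1. The interval lay inside 1.5-fold for 7 of these 13, for 6 of 11 A1 genes and for 7 of 12 A2 genes, beside 63.2% of all genes. Of 11 genes of the A1 class, named from astrocytes after inflammatory injury, 1 was higher and 0 lower (median 0.10). Of 12 of the A2 class, named from ischaemia, 0 were higher and 1 lower (median -0.04). Both counts stand beside the same 6.43% and 5.56% of all genes. Of 24 interferon-induced genes 1 was higher and 0 lower, beside the same shares, and their median was 0.32. Their summed level was 5616 CPM in saline replicate 3 and 3268 to 3949 CPM in the other 6, and without that library the median was 0.03.

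For 62 of 65 subunits of oxidative phosphorylation the interval lay inside 1.5-fold (median 0.03), as it did for 49 of 50 mitochondrial ribosomal proteins (0.04) and 14 of 16 cytosolic heat shock genes (-0.04), beside 63.2% of all genes. Of the cytosolic ribosomal proteins 42 of 61 did (-0.04). The myelin list was less precise, with 5 of 20 intervals inside 1.5-fold and 1 gene lower at the unadjusted threshold, beside 5.56% of all genes. Mbp ranged from 7385 to 8745 CPM in naïve libraries and was 4179, 10326 and 6954 CPM in saline libraries (log2 fold change -0.17). The summed level of the list was 15548 to 18760 CPM in naïve and 11243, 22175 and 14701 CPM in saline libraries, lowest in saline replicate 1 and highest in saline replicate 2. Photoreceptor genes varied too much between libraries to be compared: all 15 photoreceptor markers were among the 100 most variable genes within each group. Without young naïve replicate 2 and saline replicate 2, the libraries richest in them, 603 genes were higher, 460 lower and 0 called. That choice of libraries was made once their values were known.

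**Figure D5:**
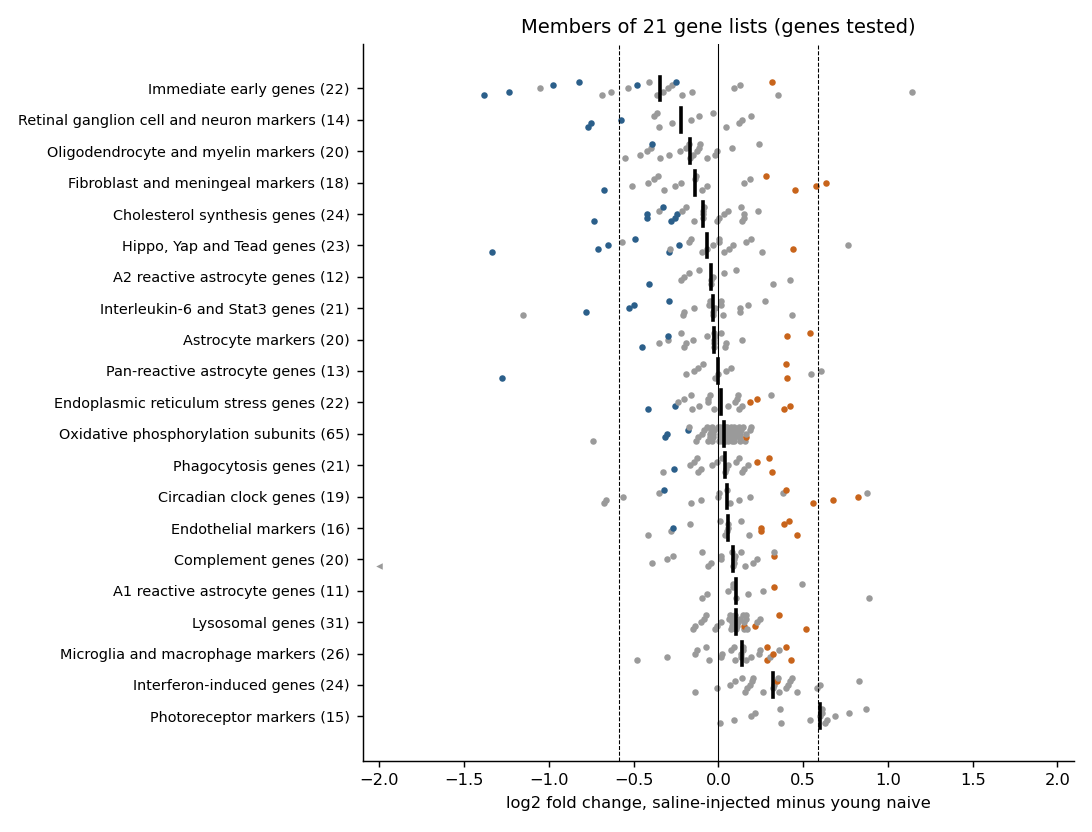
Log2 fold change (saline-injected minus young naïve) of each tested member of 21 gene lists, ordered by the list's median (thick line), with the number tested in brackets. Orange and blue points were higher and lower at an unadjusted edgeR p under 0.05, grey points were not, dashed lines mark 1.5-fold, and an arrowhead marks 1 complement gene below the axis. Medians ran from -0.34 for immediate early genes to 0.60 for photoreceptor markers.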

How the data were processed

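RNA from pooled glial lamina was amplified with a low-input kit that keeps no strand and sequenced. The authors aligned reads to mm10 with STAR 2.3.0, counted them per gene with featureCounts (version not given in the sources used here) and deposited raw counts for 23337 genes, which were used as deposited. Their comparison tables, which hold scaled values, averages, ratios and p-values, were not used. Per the labels, samples were grouped by age and injection.

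Counts were filtered with filterByExpr (14541 genes tested), scaled by TMM and fitted with edgeR 4.0.16 (limma 3.58.1, R 4.3.3) in a robust quasi-likelihood model of 4 groups and 14 libraries, without aged replicate 2 and saline replicate 4, with Benjamini-Hochberg adjustment. Calls needed a fold of 1.5, p under 0.01 and adjusted p under 0.05. Standard errors are the log2 fold change divided by the square root of F. Replicates are separate pools of 4 nerves, so p-values measure the spread between pools. The code was tested on simulated data (14367 genes, 7 unchanged genes called, 95.68% of intervals held the true value).

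The members and gene lists were chosen with earlier results of these data known. Of 902 genes on 42 lists, 900 were matched, 13 through older symbols. Genes were named if called, if among the 12 with the smallest p or the 5 with the largest change per direction (fold at least 1.5, mean count at least 50, groups separate), as up to 3 members per list with the smallest p, as defining markers or as members of the PCR panel. Genes outside that rule are marked in the text as named after their values were seen, to which Ptgds, Dnajc3, Lars2 and Rn45s also belong. Alternatives were other size factors and filters, DESeq2 1.42.0, other sets of libraries, a replicate block, the library code as a term, removal of the length trend and leaving out each library. Tests of RNA concentration and RNA integrity were not run: the study lists both per library in its supplement, which was not used here for values, and the processed files do not carry them. Input RNA between the groups was therefore not compared. Promoter sequences are from RefSeq, build GRCm38.p6, which matched 10305 of the tested genes. A few items are not reported here.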

Additional observations from a re-analysis of the deposited data

Results flagged for a closer look

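In the 4 young naïve libraries, 128 values were examined for 1 library far from the other 3 (its gap to the nearest, over the range, past Dixon's critical value), and 9 met that limit, where chance gives about 1 in 20. In young naïve replicate 2, Nefm was 13.6 CPM (7.63 to 8.35 in the others), Lif 2.94 CPM (2.13 to 2.18), Lamp2, a lysosomal membrane protein, 627 CPM (696 to 709.5) and the summed skeletal muscle markers 65.9 CPM (24.7 to 31.0). In young naïve replicate 1, Darc was 47.7 CPM (17.2 to 21.8) and the summed immediate early genes 2233 CPM (3432 to 3582). In young naïve replicate 3, C130039O16Rik was 21.3 CPM (28 to 29.1) and the summed red blood cell markers 70.7 CPM (38.5 to 41.4). In young naïve replicate 4, Col1a1 was 208 CPM (249 to 255).

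Saline replicate 4, which entered no test of the main comparison, held 5569 CPM of Lars2 (90.5 to 213 in the 7 libraries compared) and 2662 CPM of Rn45s, the ribosomal precursor RNA (631 to 1982). The Spearman correlation, across genes, of gene length with a gene's log2 level relative to the young naïve mean was 0.463 in it and -0.376 to 0.257 in the others. What sets it apart was not tested.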

How the results depend on the processing

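The single call became 3 with DESeq2's size factors in edgeR, 7 with no filter on low counts, 4 at a mean count of at least 50, 60 with DESeq2, and 3 with no minimum fold. With the library code as a term the 2 calls were Irf2bp2 and Postn (named after their values were seen), without Vgll4. The count was 0 in the 7 libraries alone, with saline replicate 4 added, in all 16 libraries, with the length trend removed and without both libraries richest in photoreceptor transcripts. Leaving out each library in turn gave 0 to 90 calls, 679 to 1158 genes higher and 527 to 1270 lower at an unadjusted p under 0.05. Genes higher at that p numbered 513 in all 16 libraries and 603 without the photoreceptor-rich pair, and genes lower 449 with saline replicate 4 added, 282 in all 16 and 460 without that pair. Intervals inside 1.5-fold fell to 2941 with the code as a term. Mbp was 0.071 with the code as a term and -0.53 to 0.10 on leaving out each library. Tef was -0.13 with the code as a term. The difference in library totals was -885456 to 216086 counts on leaving out each library. The cause of these shifts was not tested. Deviations of same-numbered libraries correlated at 0.0724, 0.542 and 0.255. Saline replicates 1 and 2 were closest to their same-numbered young naïve libraries, and saline replicate 3 to young naïve replicate 4 (0.517). Young naïve replicate 2 and saline replicate 2 were also the libraries richest in photoreceptor transcripts. These correlations therefore cannot show whether replicate numbers pair the samples. With the replicate block, 1 gene, Jun, was called, with 824 genes higher and 724 lower. Planned tests of RNA concentration and RNA integrity were not run, so that a difference in input RNA between the groups was not tested. The depth of 8055203 to 10258288 counts limits genes of low level.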
